A study of Rattus norvegicus with 50 samples.

Results

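The cell cycle and replication genes are a list of 36 genes that dividing cells transcribe, taken from a list of names with no threshold on a measured value. Of the 36, 31 were measured by a probeset with a single gene symbol, among 18166 genes in all. Rrm1, Tk1, Birc5, Cenpe and Anln were not analysed here. The genes were followed in the caudal mammary gland of 50 female Sprague-Dawley rats, 1 Affymetrix Rat Gene 2.0 ST array per rat. The study asked how low oral doses of chemicals from personal care products alter the mammary transcriptome. Rats received the vehicle, olive oil (OIL). Others were given diethyl phthalate (DEP), a plasticizer, or the preservative methyl paraben (MPB). Others again were given the antimicrobial triclosan (TCS) or the 3 chemicals together (MIX). Treatment ran from postnatal day (PND) 1 to PND 180, first through the milk of gavaged dams and, once the pups were weaned at PND 28, by direct gavage. All rats were killed at PND 181. Each treatment was given to 5 nulliparous rats and 5 parous rats, the latter mated at PND 97 and past lactation at collection, which makes 10 groups of 5. Collection was not timed to the estrous cycle, and the cycle stage was not used here.

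Values are log2 signals. RNA of 26 rats was extracted with a Promega kit and that of 24 rats with a Zymo kit, and the kit coincides with the batch label. Both DEP groups held 1 Promega rat and 4 Zymo rats, and the other 8 groups held 3 and 2. The kit was a term in every model, and single-rat values are given with the kit difference removed. Array medians lay close together, between 6.70 and 6.91, which does not bear on the kit difference of single genes. The epithelial marker Epcam ranged from 8.74 to 11.44 over the rats, and the B cell marker Ms4a1 from 5.66 to 11.73. In such bulk tissue a lower signal from fewer cells of a type and one from less RNA per cell cannot be told apart.

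The cell cycle runs from a growth phase through DNA replication to mitosis and division. Replication origins are loaded with the Mcm2-7 helicase by Cdc6 and Cdt1, and the S phase then needs nucleotides from enzymes such as Rrm2 and Tyms and the sliding clamp Pcna. Cyclins A and B (Ccna2, Ccnb1, Ccnb2) with the kinase Cdk1 drive entry into mitosis, where the kinases Plk1, Aurka and Aurkb and the checkpoint proteins Ttk, Bub1 and Bub1b order chromosome segregation. Top2a untangles DNA, Kif11, Kif20a, Kif23, Tpx2, Nusap1 and Prc1 build the spindle and midzone, and Ect2 starts cytokinesis. Mki67 encodes the proliferation antigen Ki-67, which coats mitotic chromosomes. In the adult mammary gland, division of epithelial cells is known to rise in pregnancy and to vary with ovarian hormones. E2F factors are known to activate genes of the replication step, and the CCAAT box with the cell cycle genes homology region (CHR) is known from promoters of the mitotic genes.

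Promoter windows of 300 bases, from 250 before to 50 after the gene start, were available from RefSeq (GRCr8) for 25 of the 31 measured genes. Motifs were searched on both strands. The CCAAT box was its name's letters. The CHR was TTTGAA or its variant form TTCGAA in the window. The E2F letters were any of these words: TTGGCGC as one form, TTCCCGC as another form, or TTCGCGC as the last form. E2F letters may overlap each other, as in Mcm6. They were found in 7 of 8 promoters of the licensing and nucleotide genes and in 4 of 17 promoters of the mitotic and cytokinesis genes, against 7.52% of all 33469 promoters. CHR letters were found in 2 of 8 and 12 of 17, against 19.7% of all promoters, and the CCAAT box in 5 of 8 and 14 of 17, against 37.5%. Both the CCAAT box and the CHR were present in 1 of 8 and 11 of 17, against 7.95%. These are matches of letters and no measurement of binding. Mcm5 and Mcm6 are examples with E2F letters, and both also hold CCAAT boxes. Ccnb2 and Top2a are examples with CCAAT boxes and CHR letters. The 4 windows are given below, with all matched letters in capitals. They lie at chr19:13488563-13488862 on the plus strand (Mcm5), and on the minus strand at chr13:42404303-42404602 (Mcm6), chr8:79981609-79981908 (Ccnb2) and chr10:84473044-84473343 (Top2a).
Mcm5: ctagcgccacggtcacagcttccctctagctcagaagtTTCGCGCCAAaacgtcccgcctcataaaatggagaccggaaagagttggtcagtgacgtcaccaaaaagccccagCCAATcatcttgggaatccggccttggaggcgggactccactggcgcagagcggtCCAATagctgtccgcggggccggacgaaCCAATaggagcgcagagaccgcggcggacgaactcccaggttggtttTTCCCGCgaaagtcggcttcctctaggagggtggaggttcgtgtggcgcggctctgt
Mcm6: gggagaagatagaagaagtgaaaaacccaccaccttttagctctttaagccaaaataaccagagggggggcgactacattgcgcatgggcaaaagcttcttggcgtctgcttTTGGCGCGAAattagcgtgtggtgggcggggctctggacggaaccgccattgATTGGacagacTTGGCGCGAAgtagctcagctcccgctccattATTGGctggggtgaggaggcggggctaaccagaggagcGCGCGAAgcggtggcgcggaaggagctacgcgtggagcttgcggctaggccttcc
Ccnb2: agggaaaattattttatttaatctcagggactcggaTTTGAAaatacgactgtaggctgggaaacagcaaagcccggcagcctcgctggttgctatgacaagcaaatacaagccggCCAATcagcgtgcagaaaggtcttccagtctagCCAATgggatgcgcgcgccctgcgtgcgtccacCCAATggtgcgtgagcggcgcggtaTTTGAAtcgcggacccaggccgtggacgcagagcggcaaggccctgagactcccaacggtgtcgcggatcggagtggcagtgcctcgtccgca
Top2a: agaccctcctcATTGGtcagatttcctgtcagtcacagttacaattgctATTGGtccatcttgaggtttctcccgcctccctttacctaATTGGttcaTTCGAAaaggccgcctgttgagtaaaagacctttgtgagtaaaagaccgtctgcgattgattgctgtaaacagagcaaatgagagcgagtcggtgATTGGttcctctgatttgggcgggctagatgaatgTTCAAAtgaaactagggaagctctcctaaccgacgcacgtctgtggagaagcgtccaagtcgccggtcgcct
Counted from the gene start, the 3 CCAAT boxes of Ccnb2 began at -134, -101 and -68, followed by a CHR at -43. Another CHR of Ccnb2 began at -214. In Top2a 4 CCAAT boxes stood on the opposite strand as ATTGG, and CHR letters began at -152 and -22.

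The members differed far more between rats than most genes did. Within groups and kits, the residual standard deviation of a member had a median of 0.85 on the log2 scale, against 0.20 for all genes, and every member lay between the 91.3 and the 99.7 percentile of all genes. Mki67 varied most, from 5.80 to 11.59 over the 50 rats, a 55.1-fold range on the linear scale. Top2a ranged from 5.89 to 10.87 and Nusap1 from 6.17 to 10.99. The replication genes Cdt1 (6.76 to 8.35) and Mcm7 (8.18 to 9.92) varied least in range of the 31. All 31 members were above the 30th percentile of signal (5.58) in all 10 groups.

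**Figure D1:**
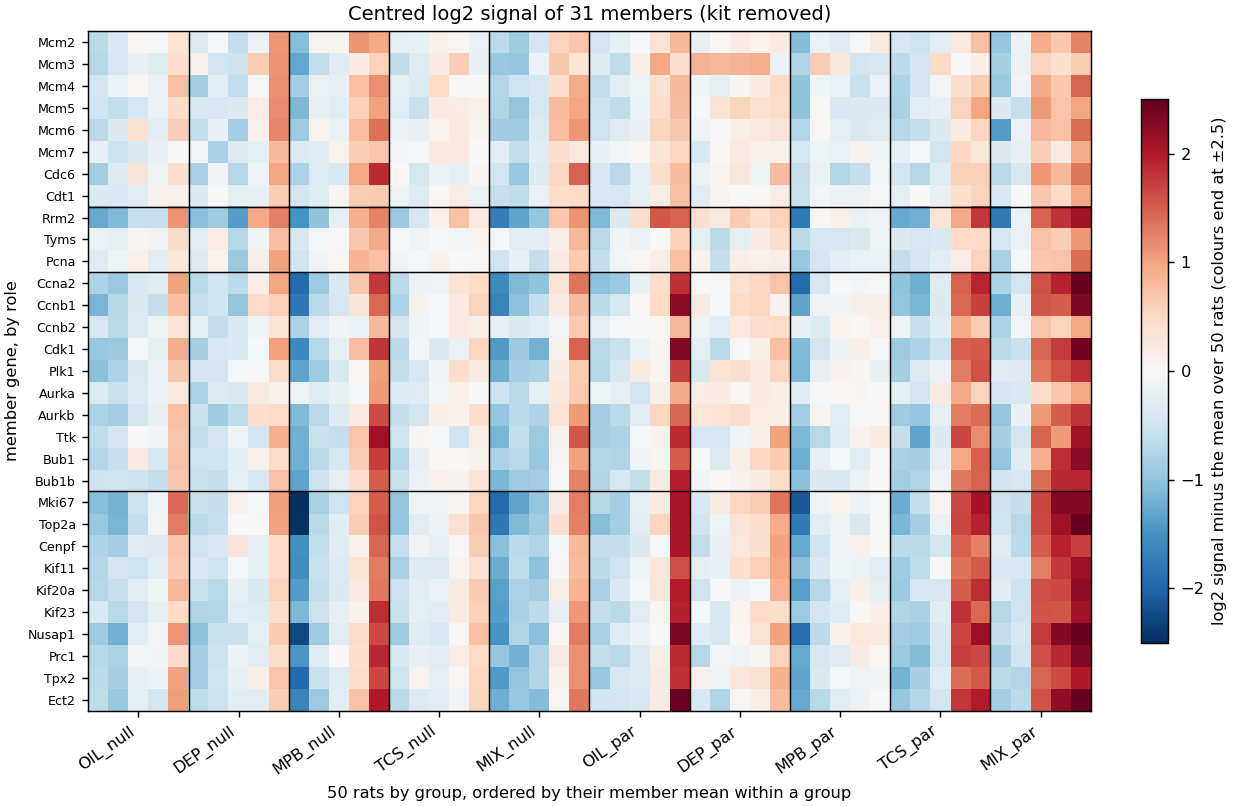
Log2 signal of 31 members (rows, by role: licensing and helicase, nucleotide supply and clamp, mitotic kinases and checkpoint, chromosomes, spindle and cytokinesis) in 50 rats (columns, by group, ordered within a group by the mean of the members), each row centred on its mean over the rats and the kit difference removed. Colour runs along columns: in 10 rats all 31 members were above their mean and in 13 rats none was.

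The variation was shared by the members. In 10 rats all 31 members were above their own means, and these rats came from 7 groups: 3 from parous MIX, 2 from parous TCS, and 1 each from parous OIL and nulliparous OIL, DEP, MPB and MIX. In 13 rats none was above its mean, and these also came from 7 groups, including both OIL groups with 2 rats each. After group and kit were fitted, Pearson's r between 2 members had a median of 0.88 over the 465 pairs, with a lowest value of 0.52 for Mcm3 and Cenpf and a highest of 0.99 for Mki67 and Top2a. The points of such a correlation are the 50 rats and share the arrays. Within Promega rats the median r was 0.90 (lowest 0.49) and within Zymo rats 0.81 (lowest 0.12). Ccna2 had the highest median r with the other members, 0.95, and Mcm3 the lowest, 0.67.

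The mean of the 31 members per rat, each centred on its mean, summarises this. It was highest in rat MIX_par_338 (1.78) and rat OIL_par_441 (1.46), and lowest in rat MPB_null_127 (-1.31). Group means ranged from -0.33 ± 0.43 in parous MPB to 0.65 ± 1.11 in parous MIX (SD, n = 5 each). Parous OIL had 0.10 ± 0.84 and nulliparous OIL -0.22 ± 0.55. The spread was uneven between groups, with 0.29 in parous DEP and 0.31 in nulliparous TCS, and no group stood apart from the others.

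**Figure D2:**
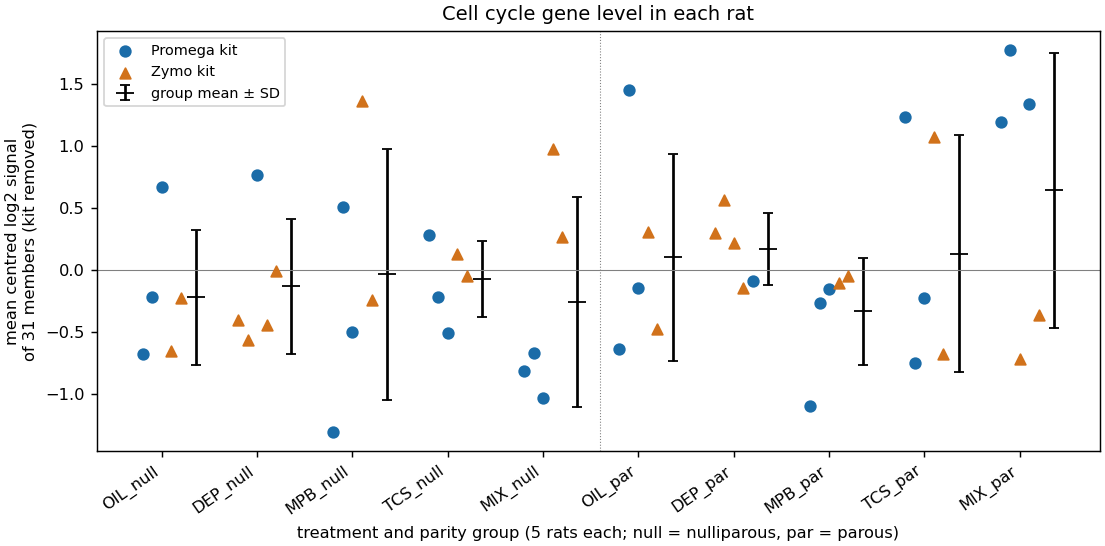
Mean centred log2 signal of the 31 members (y axis, kit difference removed) in each rat of the 10 treatment and parity groups (x axis), circles for Promega and triangles for Zymo RNA, with the group mean ± SD at the right of each group (n = 5). The groups overlap, and the 3 Promega rats of parous MIX (1.20 to 1.78) lie above its 2 Zymo rats (-0.72 and -0.37).

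Treatment was compared with the OIL rats of the same parity, with all 50 rats in 1 limma model. Calls required a Benjamini-Hochberg adjusted p under 0.25 over all 18166 genes together with a 1.5-fold or larger difference (0.585 in log2 units). The 4 treatments of a parity share their 5 OIL rats. None of the 31 members was called in any of the 8 comparisons, and none had an unadjusted p under 0.05. Of all genes, 5.26% were called for DEP in parous rats (1.18% higher, 4.08% lower), 1.84% for DEP in nulliparous rats (1.72% lower), 0.0055% (1 gene) for MPB in parous rats and 0% in the other 5 comparisons. The standard error of a member's treatment difference had a median of 0.51 for MPB, TCS and MIX and 0.52 for DEP, against 0.13 for all genes in each, so that differences of 1.5-fold were not detectable for most members.

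In parous rats, Mki67 gave the clearest view of the spread. In OIL rats its log2 signal was 8.58, 11.33, 9.05, 9.53 and 8.44. In MIX rats Mki67 was 10.96, 11.58, 8.76, 11.59 and 8.71. In MPB rats Mki67 was 7.18, 9.17, 9.37, 9.15 and 9.24. The MIX group held 3 rats above 10, the OIL group 1 and the MPB group none, and the groups overlapped. In DEP rats Mki67 was 9.94, 10.63, 9.84, 8.89 and 9.52. In TCS rats Mki67 was 11.38, 8.05, 9.35, 10.94 and 8.68. Both sets lay within or near the range of the OIL rats.

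For MIX in parous rats, 30 of 31 members had a difference above 0, with a median of 0.61, against a median of 0.01 for all genes. The largest were Ccna2, cyclin A2 (0.94, SE 0.65), Top2a (0.94, SE 0.68) and Mki67 (0.93, SE 0.72), each with an adjusted p of 0.97 in limma. The kits differed in direction: the median difference was 1.35 in the Promega rats (3 MIX, 3 OIL) and -0.40 in the Zymo rats (2 and 2). For MPB in parous rats all 31 differences were below 0, with a median of -0.43 and -0.07 without rat OIL_par_441. The largest were Rrm2, the small subunit of ribonucleotide reductase (-0.77, SE 0.68), Ect2 (-0.74, SE 0.64) and Kif20a (-0.69, SE 0.53), with adjusted p of 1.00 in limma. The MPB median was -0.79 in the Promega rats and 0.03 in the Zymo rats. Single rats moved these medians, since the members vary together: the MIX median was 0.29 without rat MIX_par_338 and 1.02 without rat OIL_par_441.

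For DEP in parous rats the median was 0.05 and 20 of 31 differences were above 0. The largest was that of the helicase subunit Mcm3 (0.55, SE 0.37, adjusted p = 0.43 in limma), at 9.30, 8.24, 9.23, 9.26 and 9.22 in DEP rats and 8.04, 8.81, 8.55, 9.36 and 7.76 in OIL rats. Rat DEP_par_38 was apart from the other 4, and the groups overlapped. Without rat DEP_par_38 Mcm3 was called (0.74, adjusted p = 0.21), as it was without rat OIL_par_444 (0.79, adjusted p = 0.20). With Ms4a1 as a covariate the Mcm3 difference was 0.18 and with Epcam 0.03. Epcam itself did not overlap between parous DEP rats (8.74 to 10.06) and parous OIL rats (10.57 to 11.21). The fit with Epcam therefore cannot tell treatment from Epcam level. Mki67 (0.38, SE 0.73) and Mcm5 (0.36, SE 0.39) followed. Of the 92 other cell cycle genes measured, the G1 cyclin Ccnd1 was lower in parous DEP rats (-0.59, SE 0.20, adjusted p = 0.07) and Dbf4, the activator of the Cdc7 kinase at origins, was higher (0.63, SE 0.27, adjusted p = 0.19). Marker genes moved with DEP in the same rats: all 8 luminal epithelial markers were lower (median -1.13), and 2 of 5 macrophage markers were. All 5 B cell markers (median 1.496) and all 6 T and NK cell markers (median 1.05) had differences above 0, and none of these was called (lowest adjusted p = 0.32 and 0.34). The part of these cell types in the Mcm3 value was not tested beyond the covariates, and in the Ccnd1 value it was not tested. For TCS the median was 0.07, and Mki67 (0.29, SE 0.72), Rrm2 (-0.28, SE 0.68) and Mcm6 (-0.22, SE 0.41) differed most.

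In nulliparous rats the medians of the members were 0.09 for DEP, 0.22 for MPB, 0.15 for TCS and -0.04 for MIX. Leaving out single rats moved them from -0.20 (without rat DEP_null_29) to 0.25 (without rat OIL_null_429) for DEP, from -0.21 (without rat MPB_null_130) to 0.51 (without rat MPB_null_127) for MPB and from 0.03 (without rat OIL_null_430) to 0.39 (without rat OIL_null_429) for TCS. For MIX they ran from -0.37 (without rat MIX_null_330) to 0.19 (without rat OIL_null_429). In OIL rats Mki67 was 8.23, 9.19, 10.71, 8.11 and 8.76. In MIX rats Mki67 was 7.98, 8.31, 7.37, 10.58 and 9.51. In MPB rats Mki67 was 5.80, 9.86, 8.48, 10.82 and 8.78. Each of these groups held at least 1 rat above 10, and the MPB group held both the lowest and the highest of these 15 values. In DEP rats Mki67 was 9.41, 8.73, 10.34, 8.71 and 9.26. In TCS rats Mki67 was 9.83, 9.18, 8.31, 9.38 and 9.20. Both were inside the range of the OIL rats.

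Among single members, Mcm3 differed most for DEP (0.41, SE 0.37), followed by Mki67 and Mcm5 (0.29 each). Rrm2 had 7.00, 7.33, 9.63, 7.48 and 9.32 in nulliparous DEP rats and 7.12, 7.80, 9.51, 7.28 and 7.81 in OIL rats. These overlapped almost fully (0.25, SE 0.69, adjusted p = 0.91 in limma). For MPB, Mcm7 (0.40, SE 0.24), the loading factor Cdc6 (0.39, SE 0.43) and Mcm2 (0.38, SE 0.36) differed most. For TCS these were Rrm2 (0.42, SE 0.68), cyclin B1, Ccnb1 (0.42, SE 0.59) and Mcm7 (0.33, SE 0.24). For MIX they were Mki67 (-0.25, SE 0.72), Kif20a (-0.23, SE 0.53) and the spindle assembly factor Tpx2 (-0.21, SE 0.57). The MPB median was -0.35 in Promega rats and 0.97 in Zymo rats, the DEP median 0.88 and 0.13, and the TCS median -0.09 and 0.47. The DEP value in Promega rats rests on 1 DEP rat, DEP_null_29. The MIX median was -0.77 in Promega rats and 1.00 in Zymo rats, opposite to the order of the kits in parous MIX rats.

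**Figure D3:**
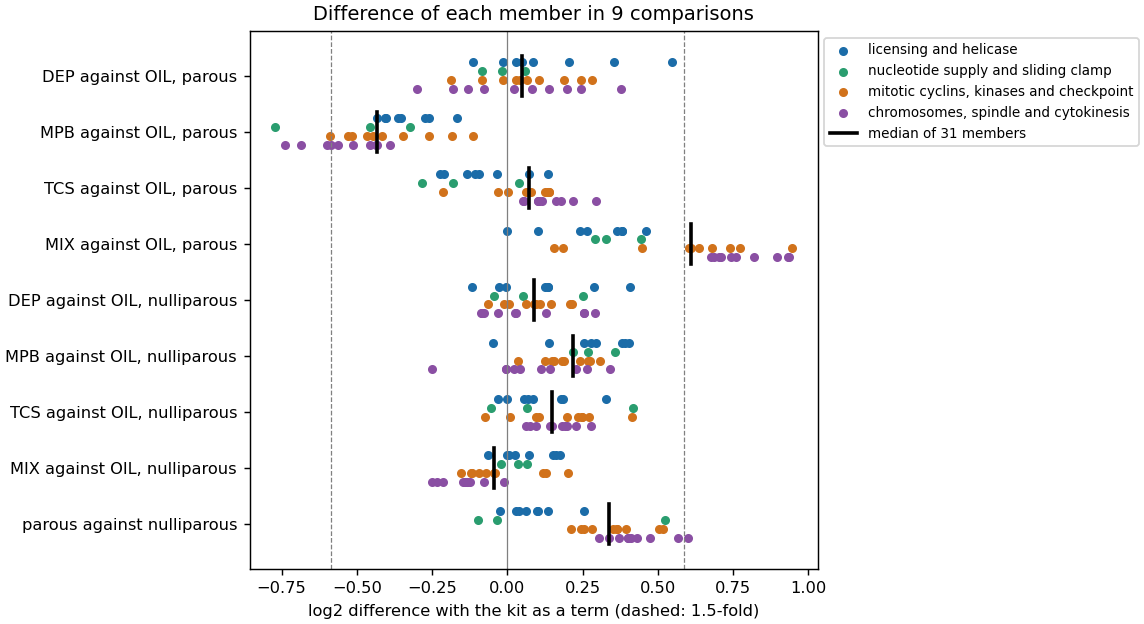
Log2 difference (x axis) of each of the 31 members, coloured by role, in the 8 treatment comparisons and the parity comparison (y axis), with the median of the members as a black bar and 1.5-fold as dashed lines. Members of a comparison shift together: all 31 lie below 0 for MPB and 30 above 0 for MIX in parous rats, and none passed the test.

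The difference of a treatment effect between parities was tested as an interaction. None of the members was called in limma for DEP, MPB, TCS or MIX, where 0% of all genes were. The median was 0.00 for DEP, -0.63 for MPB, -0.10 for TCS and 0.70 for MIX. One member had an unadjusted p under 0.05, Mcm7 for MPB (-0.68, SE 0.33, adjusted p = 1.00), and none did for the other 3.

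Parity was compared over all treatments, 25 parous against 25 nulliparous rats. None of the 31 members was called in limma, where 0.528% of all genes were, and 28 of 31 differences were above 0 with a median of 0.34. The 10 mitotic kinase and cyclin genes (median 0.36) and the 10 chromosome and spindle genes (median 0.41) were all above 0, while the 8 licensing genes had a median of 0.08. The largest differences were Mki67 (0.60, SE 0.32, adjusted p = 0.30), Nusap1, a spindle microtubule protein (0.57, SE 0.30, adjusted p = 0.29), and Rrm2 (0.52, SE 0.30, adjusted p = 0.34). Members with an unadjusted p under 0.05 were 2, Plk1 (0.50, SE 0.21, adjusted p = 0.15) and the motor Kif11 (0.47, SE 0.22, adjusted p = 0.21), both below the fold threshold. Over all genes, 3638 of 18166 had such a p, a larger share than among the members. Of the 92 other pathway genes none was called and 11 had an unadjusted p under 0.05, also a smaller share than over all genes, 7 of them mitotic genes led by Aspm (0.51, SE 0.20, adjusted p = 0.13). Of the 11, 3 had the opposite sign, the CDK inhibitor Cdkn1c (-0.20, SE 0.063, adjusted p = 0.046), the retinoblastoma gene Rb1 (-0.21, SE 0.069) and Ccnd2 (-0.15, SE 0.061). The median of the members was 0.48 in Promega rats and -0.12 in Zymo rats. In parous rats 2 of 4 plasma cell markers were higher (median of the 4 0.62) and 1 of 4 fibroblast markers lower (median -0.33); their part in these values was not tested.

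The count for parity changed with small changes of the samples. Up to 4 members were called when 1 rat was left out, 4 without rat MIX_par_339, 3 without rat MPB_null_130 or rat OIL_null_429, 2 without rat DEP_null_29, rat MPB_par_137, rat TCS_par_238, rat MIX_null_330 or rat MIX_par_341, and 1 without rat TCS_par_243 or rat OIL_par_446. Leaving out any of the other 40 rats left the count at 0.

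Members were called between the extraction kits. Zymo rats were higher in 7 members and lower in 3, with 39.3% of all genes called (17.6% higher, 21.7% lower). Cdk1 (1.69, SE 0.29) and Pcna (1.35, SE 0.15) were higher, as were Ccnb1, Aurka, Ttk, Cdc6 and Cenpf. Mcm4 (-0.80, SE 0.18), Mcm2 (-0.77, SE 0.17) and Plk1 (-0.72, SE 0.22) were lower. Neighbours in the same complex went different ways, since Mcm6 was 0.41 higher while Mcm2 and Mcm4 were lower. All treatment values above have this kit difference fitted.

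The members were then related to lymphocyte and epithelial signal. Ms4a1 encodes the B cell antigen CD20, and its slope is the change of a gene's log2 signal per log2 unit of Ms4a1 among rats of the same group and kit. Mcm3 was the only member with an adjusted p under 0.05 in limma (0.19, SE 0.035, adjusted p = 3.4e-05), against 36.8% of all 18165 genes. The second probeset of Mcm3 gave 0.18. Rrm2 followed (0.17, SE 0.079, adjusted p = 0.093), but its second probeset gave 0.02. All other members had slopes between -0.08 and 0.06, Mki67 0.03. Over the same rats the 4 other B cell markers all rose with Ms4a1 (median 0.65), as did all 6 T and NK cell markers (0.53), while 6 of 8 luminal markers fell.

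Ms4a1 signals fell into separate ranges, with 28 rats at or below 6.64 and 22 at or above 8.21, so no correlation over all rats is given. Among the 22 rats of the upper range, Mcm3 had Pearson's r = 0.79 (adjusted p = 0.00075) and Spearman's rho = 0.80 (adjusted p = 0.00033), both by permutation test with 100000 resamples, two-sided and adjusted over all genes. Without the 2 rats farthest from the median of Ms4a1 r was 0.70, within the 12 Promega rats 0.76 and within the 10 Zymo rats 0.89. Mki67 had r = 0.037 and rho = 0.24 in these rats, and no other member passed. Of all 18165 genes, 3647 passed by Pearson's r and 4244 by Spearman's rho in these rats, a larger share than among the members. The correlations had no group terms. Among the 28 rats of the lower range none of the 31 members passed or had an unadjusted p under 0.05, and the median r of the members was -0.23. Of all genes, 15 passed there by Pearson's r and 0 by Spearman's rho. The kits differed here as well: the median r of the members was -0.0083 in the 12 Promega and 0.61 in the 10 Zymo rats of the upper range, and -0.041 and -0.67 in the 14 and 14 rats of the lower range. In parous DEP rats the pairing with Ms4a1 could be read rat by rat. Ms4a1 was 11.73, 6.02, 11.37, 11.32 and 10.78, and the rat at 6.02 was the one with the low Mcm3. In parous OIL rats Ms4a1 was 8.22, 5.88, 9.75, 10.97 and 6.64, and Mcm3 was highest where Ms4a1 was. The exception was rat OIL_par_441, with low Ms4a1, high Mki67 and Mcm3 at 8.81.

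**Figure D4:**
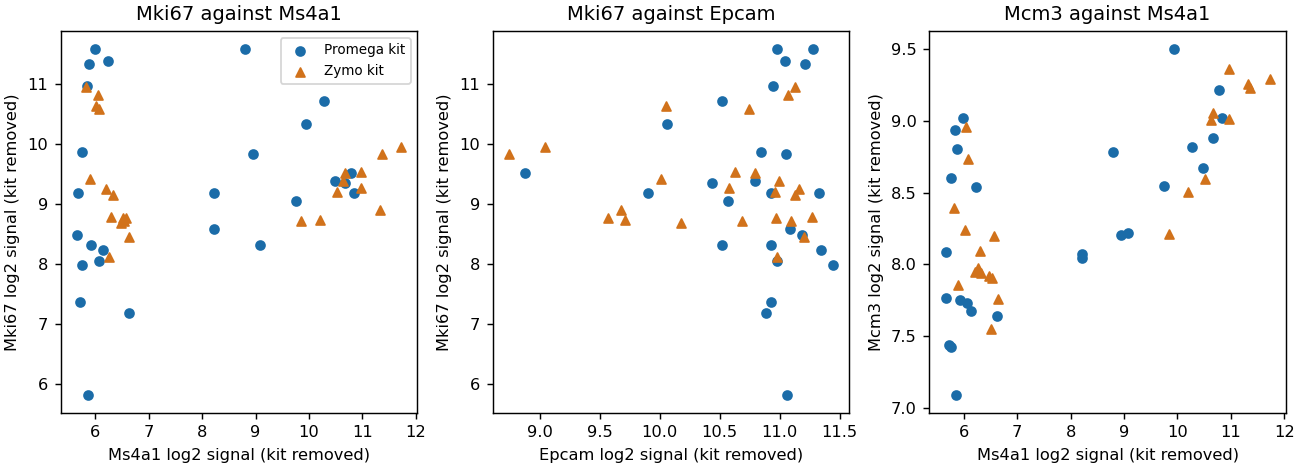
Log2 signals of 50 rats, kit difference removed (circles Promega, triangles Zymo): Mki67 (y) against the B cell marker Ms4a1 and against the epithelial marker Epcam, and Mcm3 (y) against Ms4a1. High Mki67 occurs at low and at high Ms4a1, while Mcm3 climbs with Ms4a1 among the 22 rats of the upper range.

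Of the 92 other cell cycle genes, 6 had a positive and 5 a negative slope on Ms4a1 at an adjusted p under 0.05, fewer than among all genes (14.8% positive, 22% negative). The condensin subunit Smc4 (0.17, SE 0.034) and the pocket protein Rbl2 (0.12, SE 0.014) rose with Ms4a1, as did the CDK inhibitors Cdkn1a (0.07), Cdkn1b (0.06) and Cdkn2a (0.06). Ccnd1 (-0.07), E2f3 (-0.06), Cdkn1c (-0.06) and Cdkn2c (-0.06) fell. None of the 25 other replication genes passed.

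Epcam encodes an adhesion protein of epithelial cells. None of the 31 members had a slope on Epcam with an adjusted p under 0.05 in limma, against 23.6% of all genes (14.8% positive, 8.77% negative), and 3 had an unadjusted p under 0.05: Ccnb2 (0.38, SE 0.16, adjusted p = 0.082), Pcna (0.38, SE 0.18) and Tyms, thymidylate synthase (0.33, SE 0.16). Slopes were positive for 29 of 31, with a median of 0.38 and the largest for Nusap1 (0.70, SE 0.39). Without the kit term 16 members passed. The share of all genes passing without that term is not given here, so this count is no result about the members. The correlation over the 50 rats without group terms had a median r of 0.062 over the members, 0.0080 within Promega and 0.13 within Zymo rats. Mcm3 alone passed the permutation test (r = -0.44, adjusted p = 0.0046; rho = -0.41, adjusted p = 0.013), with r of -0.35 without the 2 rats farthest in Epcam, -0.57 within Promega and -0.31 within Zymo rats. Of all 18165 genes, 7341 passed by Pearson's r and 6043 by Spearman's rho, a larger share than among the members. With Ms4a1 in the model as well, the Mcm3 slope on Epcam was 0.12 (adjusted p = 0.71), against -0.31 without it (SE 0.22, adjusted p = 0.33). In all 3 sets of correlations (Epcam and the 2 ranges of Ms4a1) p was adjusted over all genes.

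To see which genes shared the variation of the members, each gene was fitted on Mki67 within groups and kits, a relation chosen after the values were seen. All 30 other members had a positive slope with an adjusted p under 0.05 in limma, against 8.78% of all genes, from 0.25 for Mcm7 to 0.93 for Top2a. Mki67 is itself a member, with a median r of 0.91 with the others. For the members these slopes therefore restate the correlation given above and are no separate result. Slopes were steeper for the 9 chromosome and spindle genes (median 0.75) and the 10 mitotic kinase and cyclin genes (0.66) than for the 8 licensing genes (0.45), as values side by side. Among Zymo rats alone 22 of the 30 passed.

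The 92 other pathway genes followed the same axis by function. All 25 replication genes, all 39 mitotic genes and all 8 replication stress and repair genes had positive slopes, with medians of 0.28, 0.53 and 0.36. The steepest were Pbk, a mitotic kinase (0.93, SE 0.056), and Depdc1 (0.87, SE 0.042), and among repair genes Fancd2 of the Fanconi pathway (0.52, SE 0.029). Of 14 G1 cyclin, E2F and pocket protein genes 10 passed. Among these Ccne2 and Ccne1, the E cyclins of S phase entry, had slopes of 0.55 and 0.35, whereas the D cyclins Ccnd1 (0.10, adjusted p = 0.058) and Ccnd2 (0.05) did not pass. Of 6 CDK inhibitors 2 had slopes above 0 and 4 below, and Cdkn2b alone passed, with a negative slope (-0.08, SE 0.024, adjusted p = 0.023).

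Most cell type markers did not pass on Mki67, as was so for most genes: 13.9% of all genes passed (8.78% positive, 5.11% negative). None of the measured markers of B cells (5), plasma cells (4), T and NK cells (6), luminal epithelium (8), basal epithelium (3), adipocytes (5) and fibroblasts (4) passed, with list medians between -0.09 and 0.08. Of 5 germinal centre genes Mybl1 was positive (0.24), a gene related to the cell cycle factor Mybl2, and Bcl6 negative (-0.15). Of 5 macrophage genes Cd163 (-0.24) and Mrc1 (-0.12) were negative, as were both endothelial genes, Cdh5 (-0.13) and Tek (-0.09), and Tnnt3 (-0.36) of 3 muscle genes. The other 2 muscle genes had slopes of -0.36 (Ckm, adjusted p = 0.19) and -0.25 (Acta1, adjusted p = 0.23). All 5 adipocyte markers had slopes below 0 with an unadjusted p under 0.05 (median -0.09, lowest adjusted p = 0.056). The part of these cell types in the slopes was not tested.

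**Figure D5:**
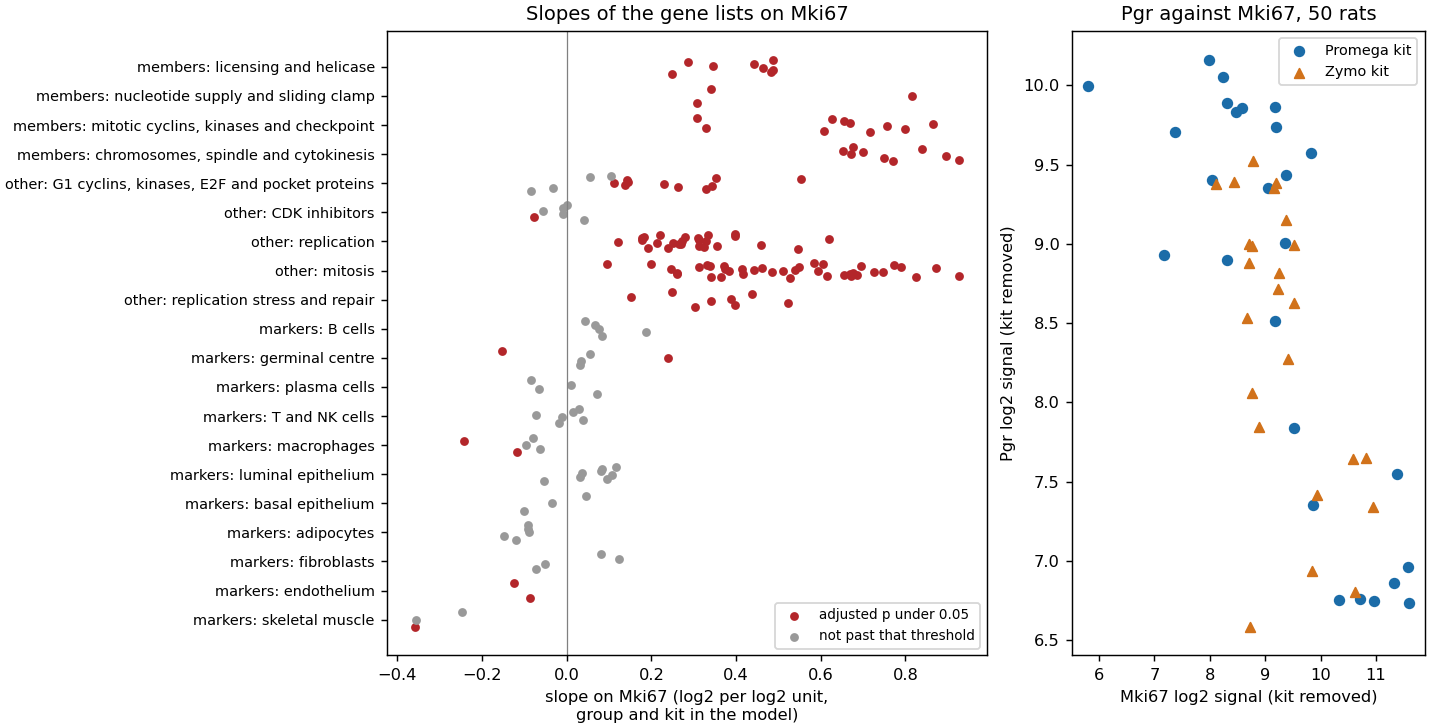
Left, slope of each gene on Mki67 (x axis, log2 per log2 unit, group and kit in the model) by gene list (y axis), red where the adjusted p is under 0.05. Right, Pgr against Mki67 in 50 rats, kit difference removed, circles Promega and triangles Zymo. All replication and mitotic genes are positive and most markers grey, and Pgr is between 6.73 and 7.65 in the rats with Mki67 above 10.

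Outside the lists, the steepest positive slopes were again mainly genes of replication and cell division. They were Esco2, a cohesin acetyltransferase (0.78), Sgo2 (0.74), Cdca2 (0.72), Cenpu (0.71), Dtl (0.68), Cep55 (0.67), Plk4 (0.66), Arhgap11a (0.65), the histone gene H2bc8 (0.65) and the PCNA-binding Pclaf (0.65). The steepest negative slopes belonged to Fmol (-0.97), Fbxw12 (-0.78), Abca13 (-0.68), Pgr (-0.62), Rspo3 (-0.53), Tph1 (-0.50), Cxcl13 (-0.47), Plekhs1 (-0.46), Mmp11 (-0.45) and Stc2 (-0.41). In Zymo rats alone 9 of these 10 negative genes did not pass, Abca13 being the exception. Cxcl13 (adjusted p = 0.040) passed in neither kit alone (adjusted p = 0.49 in Zymo and 0.42 in Promega rats) and in 40 of 50 models that left out 1 rat. Pgr encodes the progesterone receptor, Rspo3 a Wnt signal enhancer and Tph1 the enzyme that starts serotonin synthesis.

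Pgr could be read rat by rat against Mki67. In parous MIX rats Pgr was 6.75, 6.96, 8.06, 6.73 and 9.001, where Mki67 was 10.96, 11.58, 8.76, 11.59 and 8.71. In parous TCS rats Pgr was 7.55, 9.40, 9.004, 7.34 and 8.53, where Mki67 was 11.38, 8.05, 9.35, 10.94 and 8.68. In parous OIL rats Pgr was 9.86, 6.86, 9.35, 8.62 and 9.39, where Mki67 was 8.58, 11.33, 9.05, 9.53 and 8.44. In parous MIX and parous OIL the rat with the highest Mki67 had the lowest Pgr. In parous TCS the rats with Mki67 at 11.38 and 10.94 had the lowest Pgr values, with the lowest of all at 10.94. In nulliparous OIL, Pgr was 6.76 in rat OIL_null_429, where Mki67 was 10.71, and between 8.99 and 10.05 in the other 4. In nulliparous TCS rats, where Mki67 lay between 8.31 and 9.83, Pgr spanned only 9.15 to 9.89. In parous MPB rats the lowest Mki67, 7.18 in rat MPB_par_137, went with a Pgr of 8.93, in the middle of its group. Rat DEP_null_28 departed from this, with the lowest Pgr of all rats (6.58) at a Mki67 of 8.73. In parous DEP rats Pgr was 7.42, 6.81, 6.94, 7.84 and 7.84, where Mki67 was 9.94, 10.63, 9.84, 8.89 and 9.52. Its mean there was 7.37, against 8.82 in parous OIL, so that low Pgr was not confined to rats with high Mki67. The slope of Pgr on Mki67 was -0.62 (SE 0.080, adjusted p = 9.1e-08 in limma), -0.66 among Promega rats (adjusted p = 0.0035) and -0.64 among Zymo rats (adjusted p = 0.25), and -0.65 with Ms4a1 and Epcam in the model. Genes chosen after the values were seen, for their known place in hormone signalling, were Areg, an EGF receptor ligand (-0.37, adjusted p = 0.0020), Cited1 (0.63, adjusted p = 3.3e-08, a positive slope), the estrogen receptor Esr1 (0.01), Tnfsf11 (0.01) and Wnt4 (0.07), the last 3 not passing. In Zymo rats alone neither Areg (-0.49, adjusted p = 0.54 in limma) nor Cited1 (0.72, adjusted p = 0.16) passed. Among Promega rats their slopes were -0.33 (adjusted p = 0.16 in limma) and 0.58 (adjusted p = 0.0031). Areg thus passed in neither kit alone, and Cited1 in Promega rats only.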

How the data were processed

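RNA of 50 mammary glands was hybridised to 1 array each. The log2 signals were made by the authors with RMA in Affymetrix Expression Console. Their methods describe ComBat, run in R 3.0.2, to remove the kit difference. That difference was still present in the values as deposited and was fitted here. Of 36685 probesets, 18511 had 1 gene symbol, 575 several and 17599 none. The probeset with the highest mean stood for a gene with several (291 genes), which left 18166 genes, with no filter. All columns were used.

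Models were fitted in R 4.3.3 with limma 3.58.1 on all genes and 50 rats, with 10 groups and the kit as terms, after a test on simulated data. Treatment, parity and kit calls needed a 1.5-fold change with an adjusted p under 0.25, and slopes an adjusted p under 0.05. Each slope on Ms4a1, Epcam or Mki67 kept the group and kit terms. Correlations were tested in Python 3.11.15 with numpy 2.4.6. The members, the other cell cycle lists and the marker lists were chosen with earlier results of these data known. Members could all be named. The 3 largest differences of each comparison were given, with the leading called genes of the other lists. The slope on Mki67 and the 10 steepest genes of each sign outside the lists were added after the data were seen. Labels name separate animals, so p-values cover the spread between rats. The number of arrays limits the precision. Alternatives covered the kit, filters, thresholds, centring, array weights, covariates, probesets, the samples in the model and single rats.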

Additional observations from a re-analysis of the deposited data

Results flagged for a closer look

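In 5 of 50 sets of 5 rats (the member mean, Mki67, Rrm2, Mcm3 and Pgr in 10 groups), 1 rat lay far from the other 4, with a gap of more than 0.71 of the range of the group. Chance flags about 1 in 20 such sets. In parous MPB, rat MPB_par_137 was low in the mean of the members (-1.096, next -0.264), in Mki67 (7.181, next 9.15) and in Rrm2 (6.619, next 8.226), 3 values that are not independent. In nulliparous OIL, rat OIL_null_429 was high in Rrm2 (9.507, next 7.809). In parous DEP, rat DEP_par_38 was low in Mcm3 (8.239, next 9.216).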

How the results depend on the processing

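The count of members called stayed at 0 for the 8 treatment comparisons under the 13 alternatives other than leaving out single rats, which gave 0 to 1 for DEP in parous rats. No paired analysis was possible because the replicate numbers are animal numbers that no 2 groups share. For parity the count was 1 in Promega rats, 1 with the intensity and variance filters, 2 with centred arrays, 5 with array weights, 3 with Epcam as covariate, and 0 to 4 when single rats were left out. On Ms4a1 it was 2 at an adjusted p under 0.25, 2 with array weights, 2 with both markers, 0 below and 2 above the gap, and 1 to 2 without single rats. Below the gap the slope of Mcm3 was -0.65 (adjusted p = 0.55 in limma) and that of Rrm2 -1.65 (adjusted p = 0.47), neither passing. Above the gap Mcm3 (0.63, adjusted p = 0.021) and Rrm2 (1.29, adjusted p = 0.032) were those that passed. On Epcam the count was 16 without the kit term, 8 at an adjusted p under 0.25, 1 with array weights and 0 to 1 without single rats (DEP_null_30, MIX_null_327, MIX_par_339 or OIL_null_429). The share of all genes without the kit term is not given here. The Mcm3 slope on Epcam was 0.0014 without the kit term and 0.12 with both markers. On Mki67, Zymo rats alone gave 45 other pathway genes and a Pgr slope of -0.64. Leaving out single rats gave 30 to 30 members, 82 to 84 other pathway genes and Pgr slopes of -0.68 to -0.58. The causes were not tested.

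In Zymo rats alone, Ect2 for parous MPB was 0.056. For parous MIX, Ccna2 was -0.39, Top2a -0.46 and Mki67 -0.25. For nulliparous MIX, Mki67 was 1.61, Kif20a 0.94 and Tpx2 1.15, and for parity Mki67 was -0.0095 and Rrm2 -0.10. In Promega rats alone, Mki67 was -0.13 for parous DEP (1 DEP rat) and -0.060 for parous TCS, and Rrm2 was 0.0081 for parous and -0.15 for nulliparous TCS. Without single rats, differences ran in nulliparous DEP from -0.032 to 0.69 (Mki67) and -0.062 to 0.46 (Mcm5), in nulliparous MPB from -0.026 to 0.66 (Cdc6), in parous TCS from -0.14 to 0.79 (Mki67) and -0.70 to 0.070 (Rrm2), and in nulliparous MIX from -0.72 to 0.19 (Mki67), -0.57 to 0.021 (Kif20a) and -0.61 to 0.083 (Tpx2).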
